A study of Homo sapiens with 4 samples.

Results

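The genes described are 60 that build, tether, coat or fuse the membranes of the Golgi apparatus, the endosomes and the routes between them. They were followed in MDA-LM2 cells after knockdown of SNRPB2. MDA-LM2 was derived from the human breast cancer line MDA-MB-231 by selection for growth as metastases in the lung. SNRPB2 encodes a component of U2, the small nuclear particle of the spliceosome that pairs with the branch site of an intron. The groups were siSNRPB2, cells that had received siRNA against SNRPB2, and siCtrl, cells labelled as given a control siRNA and described in the series' text as mock-transfected. Both groups were cultured and transfected alike, and total RNA was taken 48 h after transfection, with 2 libraries per group in the labels. The labels give 2 independent siRNAs and a knockdown above 95% by qPCR, and do not say which siRNA each library received. All libraries are of this 1 cell line.

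The measurement is ψ, the fraction of a gene's transcripts that keep a skipped exon, between 0 and 1. It was estimated from reads on a skipped exon and its neighbouring exons, which together form an event. A skipped exon was given to a gene when it shared a boundary with an exon of that gene in GENCODE release 29. Of the 60 genes, 53 had at least 1 event, with 217 events and 187 skipped exons. An exon was tested when each group had at least 20 informative reads, that is reads that fit only the isoform with the exon (keeping reads) or only the one without it (skipping reads), and 133 exons of 48 genes met this, out of 18682 tested exons of 7672 genes in all. No event was listed for 7 of the 60 (COG8, SNAP29, EXOC2, EXOC4, SEC24A, HGS and GOLGA1), and 5 had events but no tested exon (SEC16A, COG1, BET1, EXOC3 and SEC22A). Of the tested exons, 9 shared their boundary with another gene as well, among them the exons of STX16, which a read-through gene with NPEPL1 also holds.

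Proteins and lipids leave the endoplasmic reticulum in COPII vesicles, return in COPI vesicles, and are sorted at the trans-Golgi and in endosomes, from which retromer and sorting nexins carry cargo back. Long coiled-coil golgins and multisubunit tethers such as COG, the exocyst and HOPS catch an arriving vesicle, and SNARE proteins on both membranes then zip together to fuse them. Many of these genes carry short cassette exons that are kept or skipped by cell type.

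The files hold 42670 events in siSNRPB2 and 42159 in siCtrl, with 93580246 reads on them in siSNRPB2 and 100579230 in siCtrl, counted once per event, and 1 value per event and group. No difference below could therefore be set against a spread between libraries, and all ψ values are the authors', printed with their deposited interval and without SD. SNRPB2 itself had 0 listed events, and its level was not analysed here. Of the markers of the MDA-MB-231 lineage, 3 of 6 (CD44, AXL and FN1) had reads, summing to 2771.1 RPM in siSNRPB2 and 3193.4 RPM in siCtrl (RPM, reads on the deepest event of a gene relative to the sum of such reads in that file). Of 10 luminal or epithelial markers, 4 had reads. They summed to 721.9 RPM in siSNRPB2 and 776.8 in siCtrl, nearly all from KRT8. ESR1 had 10 reads in siSNRPB2 and 1 in siCtrl. Of 5 blood and endothelial markers, 2 had reads, summing to 2.3 RPM in siSNRPB2 and 2.9 in siCtrl.

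An exon was called lower or higher in siSNRPB2 when ψ differed by at least 0.1 and the Bayes factor in the authors' deposited table, the evidence for a difference over none, was at least 10. In the genes of Golgi and endosome traffic 9 of 133 exons were called lower (6.77%), against 7.61% of all tested exons. A further 7 were called higher (5.26%), against 7.13% of all. The 16 calls fell in 11 of 48 genes (22.9%), against 28.1% of all tested genes with at least 1 called exon. The shares of the member exons and genes stood below those of the whole table under this call rule, and no test was run on that difference. The order depended on the rule: with at least 10 informative reads 8.67% of 150 member exons were called lower, against 7.72% of all 21474, and Fisher's exact test on reads, described below, put members above all exons in both directions. The median ψ difference was 0 over the 133 exons, with 54 below 0, 47 above 0 and 32 at 0, and it was 0 over all exons too. A pair of calls in VTI1A and a pair in STX16 overlap and share reads, which leaves 8 distinct exons called lower and 6 called higher.

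The sequences of 7 called exons from 5 genes are printed, all with skipping reads, so that the stretch of RNA gained or lost and any stop codon in it can be seen beside the values. They come from GENCODE release 29 transcripts on hg38 and run 5′ to 3′ on the gene's strand. In the first 5, capitals mark the skipped exon, and the lower-case letters are 15 bases of each neighbouring exon. In the last 2, capitals mark a stop codon and the lower-case letters are the coding part of the exon before it.
MON2, 18 nt, chr12:62566014-62566031, + strand: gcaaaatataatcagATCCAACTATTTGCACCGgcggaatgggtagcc
USO1, 21 nt, chr4:75795336-75795356, + strand: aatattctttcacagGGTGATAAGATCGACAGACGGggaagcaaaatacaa
SNAP23, 159 nt, chr15:42528262-42528420, + strand: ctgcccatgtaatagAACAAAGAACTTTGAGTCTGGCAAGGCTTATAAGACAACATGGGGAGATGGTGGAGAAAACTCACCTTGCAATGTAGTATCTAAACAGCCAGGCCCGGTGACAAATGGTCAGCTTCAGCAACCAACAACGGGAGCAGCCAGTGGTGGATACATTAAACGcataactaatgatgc
STX3, 100 nt, chr11:59787037-59787136, + strand: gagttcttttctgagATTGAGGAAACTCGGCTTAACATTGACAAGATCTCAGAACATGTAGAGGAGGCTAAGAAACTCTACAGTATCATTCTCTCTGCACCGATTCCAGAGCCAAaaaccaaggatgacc
VTI1A, 108 nt, chr10:112448382-112448489, + strand: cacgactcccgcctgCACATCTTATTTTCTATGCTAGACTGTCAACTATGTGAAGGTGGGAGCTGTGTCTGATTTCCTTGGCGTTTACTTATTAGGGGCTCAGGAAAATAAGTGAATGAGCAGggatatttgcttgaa
MON2, 61 nt, first part of the exon, chr12:62588856-62588893, + strand: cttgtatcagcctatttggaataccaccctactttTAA
MON2, 78 nt, first part of the exon, chr12:62470701-62470721, + strand: gtacagatgaggggtatcTAA

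MON2 had 3 tested exons and all 3 were called, 2 lower and 1 higher, beside 7.61% lower and 7.13% higher of all tested exons. It encodes a large scaffold of the trans-Golgi and endosomes that is related to the ARF exchange factors but lacks their catalytic domain. The 18-nt exon, which adds whole codons to 3 protein-coding transcripts, had a ψ of 0.08 (interval 0.02 to 0.17) in siSNRPB2 and 0.91 (0.82 to 0.97) in siCtrl. Nearly all informative siSNRPB2 reads skipped it and nearly all siCtrl reads kept it: 4 keeping and 46 skipping reads in siSNRPB2, compared with 44 and 3 for siCtrl. The ψ difference of -0.83 was the largest of the 133 exons in size. In the authors' deposited table its Bayes factor was 1e+12, the highest value listed, which the exons of VTI1A, SNAP23 and COG4 called below also had. The lowest Bayes factor among the calls in the authors' deposited table was 24.8, for the 163-nt exon of STX16.

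The 61-nt exon of MON2 moved the other way, with a ψ of 0.49 (0.31 to 0.66) in siSNRPB2 and 0.05 (0.01 to 0.15) in siCtrl. It had 15 keeping and 12 skipping reads in siSNRPB2, compared with 0 and 20 for siCtrl. The annotation places a stop codon inside this exon, printed above, so that the reading frame of a protein-coding transcript ends there. The 78-nt exon also brings a stop codon, in a transcript annotated as a target of nonsense-mediated decay, the pathway that degrades such transcripts. Its ψ was 0.02 (0.00 to 0.07) in siSNRPB2 and 0.23 (0.15 to 0.31) in siCtrl, with 0 keeping and 24 skipping reads in siSNRPB2, compared with 21 and 34 for siCtrl. All compatible reads on the gene's deepest event, which is that of the 61-nt exon, differed less. They came to 38.8 RPM in siSNRPB2 and 33.2 in siCtrl, a log2 ratio of 0.22. Summed over the 5 events of MON2 the log2 ratio was 0.05.

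**Figure D1:**
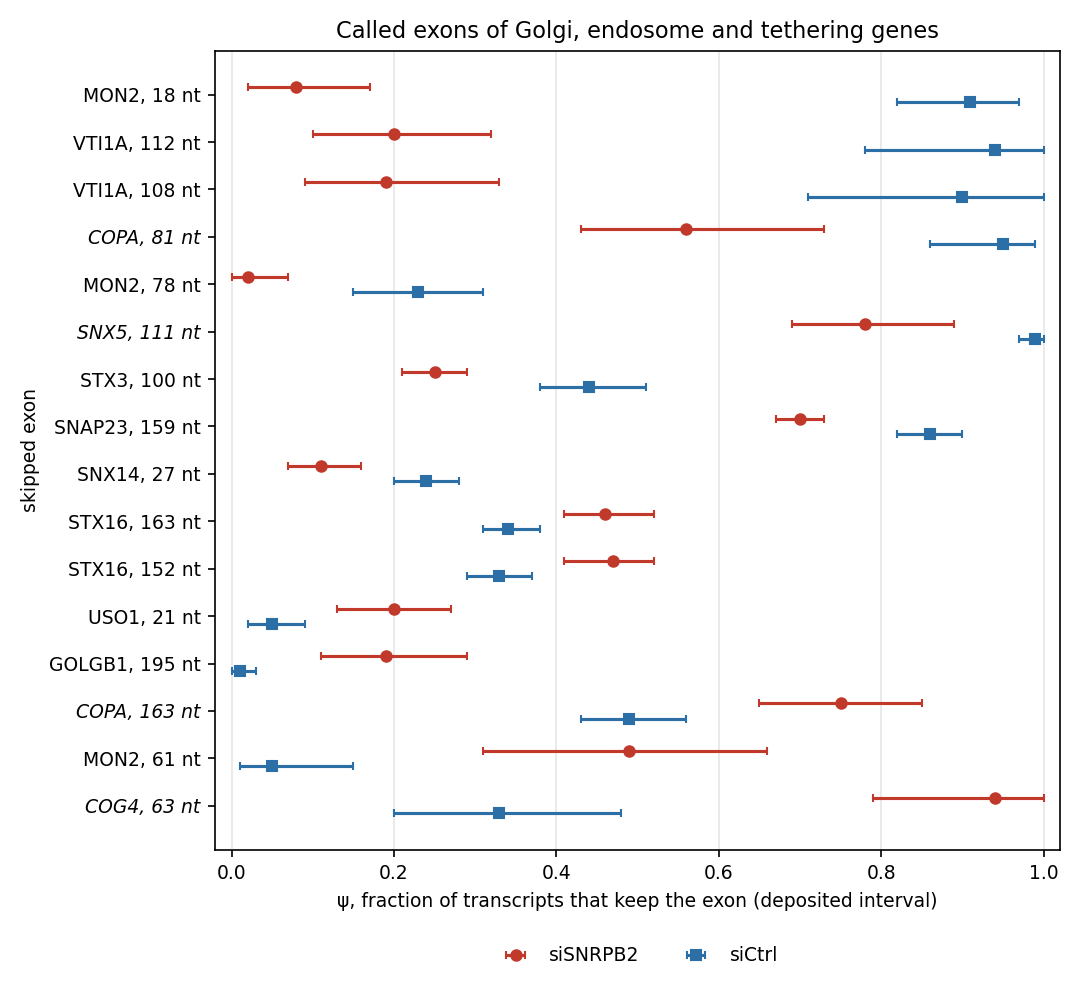
ψ of the 16 called exons in siSNRPB2 (red circles, upper) and siCtrl (blue squares, lower), with the deposited intervals as bars, ordered from the largest decrease to the largest increase; italic labels mark exons that lacked skipping reads in both groups. The intervals of the groups are apart in all 16, and MON2 appears both at the top, with its 18-nt exon, and near the bottom, with its 61-nt exon.

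SNAREs held 6 of the 16 calls, 4 lower and 2 higher among 20 tested exons of 7 genes, beside 7.61% lower and 7.13% higher of all tested exons. Because of the overlapping pairs in VTI1A and STX16, these are 4 distinct exons, 3 lower and 1 higher. VTI1A, a SNARE of trans-Golgi and endosome fusion, had a 108-nt exon with a ψ of 0.19 (0.09 to 0.33) in siSNRPB2 and 0.90 (0.71 to 1.00) in siCtrl. The same exon with a start 4 bases further upstream, 112 nt, had 0.20 in siSNRPB2 and 0.94 in siCtrl from the same reads. These were 10 keeping and 17 skipping reads in siSNRPB2 against 37 and 0 in siCtrl, where 0 of 37 allows a share of skipped reads up to 8.11%. The 108-nt form is annotated only in a non-coding transcript of VTI1A and the 112-nt form in none, so no reading frame is given for either.

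SNAP23, a SNARE of plasma membrane fusion, had a 159-nt coding exon with a ψ of 0.70 (0.67 to 0.73) in siSNRPB2 and 0.86 (0.82 to 0.90) in siCtrl. This was the most deeply read call, with 994 keeping and 156 skipping reads in siSNRPB2, compared with 979 and 33 for siCtrl. Reads that kept the exon were alike in number, and those that skipped it were more in siSNRPB2. STX3, a syntaxin of the apical plasma membrane, had a 100-nt coding exon with a ψ of 0.25 (0.21 to 0.29) in siSNRPB2 and 0.44 (0.38 to 0.51) in siCtrl. It had 189 keeping and 8 skipping reads in siSNRPB2 against 240 and 0 in siCtrl, so its ψ rests mostly on how keeping reads compare with the 818 reads in siSNRPB2 and 604 in siCtrl that both isoforms share. The exon is not a multiple of 3 in length.

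STX16, a syntaxin of the trans-Golgi that receives vesicles from endosomes, had the only calls higher among the SNAREs. Its 163-nt coding exon (chr20:58669291-58669453) had a ψ of 0.46 (0.41 to 0.52) in siSNRPB2 and 0.34 (0.31 to 0.38) in siCtrl, with 371 keeping and 22 skipping reads in siSNRPB2, compared with 376 and 89 for siCtrl. The 152-nt form had 0.47 in siSNRPB2 and 0.33 in siCtrl from the same skipping reads. Both lie in exons that the read-through gene shares. None of the remaining SNARE exons was called: VTI1B, of late endosomes, had exons of 62 and 59 nt at 1.00 in both groups, and STX5, the syntaxin of the early Golgi, had a 71-nt exon at 0.95 in siSNRPB2 and 0.99 in siCtrl. The 134-nt exon of STX2, a plasma membrane syntaxin, was at 0.01 in both groups.

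**Figure D2:**
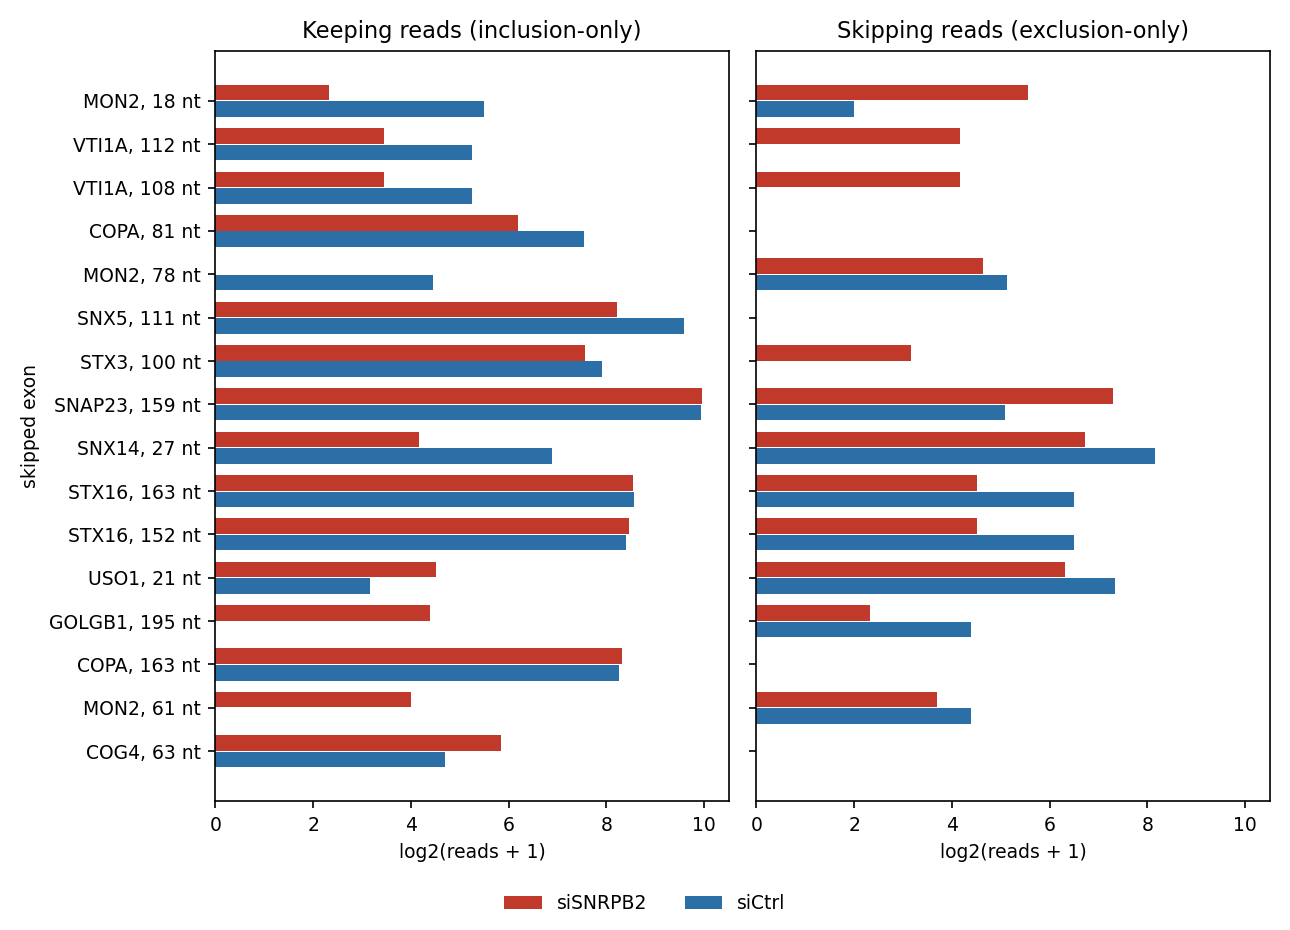
Keeping reads (left panel) and skipping reads (right panel) of each called exon, as log2(reads + 1), in siSNRPB2 (red, upper bars) and siCtrl (blue, lower bars), in the order of ψ difference. SNAP23 has 994 keeping reads in siSNRPB2 and 979 in siCtrl but 156 skipping reads in siSNRPB2 and 33 in siCtrl, while the exons of COPA, SNX5 and COG4 have no bar at all in the right panel.

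Among golgins and other coiled-coil tethers 2 of 15 exons were called, both higher, beside 7.61% lower and 7.13% higher of all tested exons. USO1, the tether of vesicles from the endoplasmic reticulum to the early Golgi, had a 21-nt coding exon with a ψ of 0.20 (0.13 to 0.27) in siSNRPB2 and 0.05 (0.02 to 0.09) in siCtrl. It had 22 keeping and 78 skipping reads in siSNRPB2 against 8 and 160 in siCtrl, so skipping was the more frequent form in both groups. GOLGB1, which encodes the membrane-anchored golgin giantin, had a 195-nt exon with a ψ of 0.19 (0.11 to 0.29) in siSNRPB2 and 0.01 (0.00 to 0.03) in siCtrl. It had 20 keeping and 4 skipping reads in siSNRPB2 against 0 and 20 in siCtrl, and it is annotated only in a transcript of nonsense-mediated decay. GOLGA4, a trans-Golgi golgin with 7 tested exons, had no call. Its 66-nt exon had 0.72 in siSNRPB2 and 0.91 in siCtrl without reaching the Bayes factor, and its 21-nt exon had 0.89 in siSNRPB2 and 0.86 in siCtrl.

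COG tethers vesicles that move back within the Golgi. Of its 9 tested exons 1 was called, beside 7.61% lower and 7.13% higher of all tested exons. COG4, a subunit, had a 63-nt coding exon (chr16:70490330-70490392) with a ψ of 0.94 (0.79 to 1.00) in siSNRPB2 and 0.33 (0.20 to 0.48) in siCtrl, the largest increase of the 133. Neither group had a skipping read: 56 keeping reads in siSNRPB2 and 25 in siCtrl, which allow shares of skipped reads up to 5.36% in siSNRPB2 and 12.0% in siCtrl. This ψ therefore rests on keeping reads set against 164 reads in siSNRPB2 and 291 in siCtrl that both isoforms share. A second exon of COG4, 173 nt and annotated only for nonsense-mediated decay, had 0 keeping and 27 skipping reads in siSNRPB2 compared with 25 and 23 for siCtrl. Its ψ was 0.01 in siSNRPB2 and 0.09 in siCtrl, under the 0.1 difference needed for a call.

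COPI and its ARF regulators had 1 call in each direction among 27 exons, beside 7.61% lower and 7.13% higher of all tested exons. Both calls were in COPA, the alpha subunit of the COPI coat. The 81-nt exon (chr1:160335242-160335322) had a ψ of 0.56 (0.43 to 0.73) in siSNRPB2 and 0.95 (0.86 to 0.99) in siCtrl. The 163-nt exon (chr1:160299102-160299264) had 0.75 (0.65 to 0.85) in siSNRPB2 and 0.49 (0.43 to 0.56) in siCtrl. Neither had a skipping read in either group. Keeping reads were 72 in siSNRPB2 and 184 in siCtrl for the 81-nt exon, and 320 in siSNRPB2 and 306 in siCtrl for the 163-nt exon. These allow shares of skipped reads up to 4.17% in siSNRPB2 and 1.63% in siCtrl for the 81-nt exon. For the 163-nt exon the limits are 0.938% in siSNRPB2 and 0.98% in siCtrl. Both ψ values therefore rest on keeping reads set against reads that both isoforms share. Those were 221 in siSNRPB2 and 237 in siCtrl for the 81-nt exon, and 619 and 904 for the 163-nt exon. Of the remaining 7 tested exons of COPA, 5 stood at 0.94 or above in siSNRPB2 and in siCtrl, the 87-nt exon had 0.81 in both, and the 136-nt exon had 0.80 in siSNRPB2 and 0.94 in siCtrl without a call. COPB1 and COPG1, also COPI subunits, had exons at 0.00 in both groups, and the 212-nt exon of GBF1, an exchange factor that loads ARF for COPI, had 0.99 in siSNRPB2 and 0.98 in siCtrl.

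Sorting nexins and retromer had 2 of 29 exons called, both lower, beside 7.61% lower and 7.13% higher of all tested exons. SNX5, a sorting nexin that bends endosomal tubules, had a 111-nt coding exon (chr20:17955365-17955475) with a ψ of 0.78 (0.69 to 0.89) in siSNRPB2 and 0.99 (0.97 to 1.00) in siCtrl, without a skipping read. SNX14, a sorting nexin at contacts of the endoplasmic reticulum with lipid droplets, had a 27-nt coding exon (chr6:85538838-85538864) with 0.11 (0.07 to 0.16) in siSNRPB2 and 0.24 (0.20 to 0.28) in siCtrl. It had 17 keeping and 105 skipping reads in siSNRPB2 compared with 118 and 282 for siCtrl. Of the 3 tested exons of core retromer, the 149-nt exon of VPS35 had a ψ of 1.00 in both groups, the 236-nt exon of VPS29 had 0.99 in siSNRPB2 and 1.00 in siCtrl, and the 180-nt exon of VPS29 had 0.04 in both. The 125-nt and 96-nt exons of SNX3, which recruits retromer, had 1.00 in both groups.

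No exon was called among the 7 of COPII, the 6 of the SNARE-disassembly adaptors, the 5 of HOPS and VPS45, the 3 of TSG101 and the 9 of the VPS13 lipid-transfer genes. Of all tested exons 7.61% were called lower and 7.13% higher. The largest decreases that missed a call were in NAPG, SEC23A and COG7. The 68-nt exon of NAPG, an adaptor that helps take spent SNAREs apart, had a ψ of 0.67 in siSNRPB2 and 0.97 in siCtrl. The 87-nt exon of SEC23A, of the inner COPII coat, had 0.71 in siSNRPB2 and 0.93 in siCtrl, and the 273-nt exon of COG7 had 0.17 in siSNRPB2 and 0.37 in siCtrl. Their Bayes factors in the authors' deposited table were 3.81, 2.06 and 2.63. The COG7 exon had 23 keeping and 0 skipping reads in each group, so its lower ψ rests on the reads that both isoforms share. The largest increases that missed it were in SEC24B, ARFGAP1 and VPS13A. The 105-nt exon of SEC24B, a cargo adaptor of COPII, had 0.65 in siSNRPB2 and 0.48 in siCtrl. The 101-nt exon of ARFGAP1, which ends the ARF cycle, had 0.97 in siSNRPB2 and 0.81 in siCtrl, and the 117-nt exon of VPS13A, a bridge for lipids between membranes, had 0.49 in siSNRPB2 and 0.33 in siCtrl. Their factors in the authors' deposited table were 1.87, 0.73 and 0.98. In all, 14 of the 133 exons differed by at least 0.1 without the factor.

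**Figure D3:**
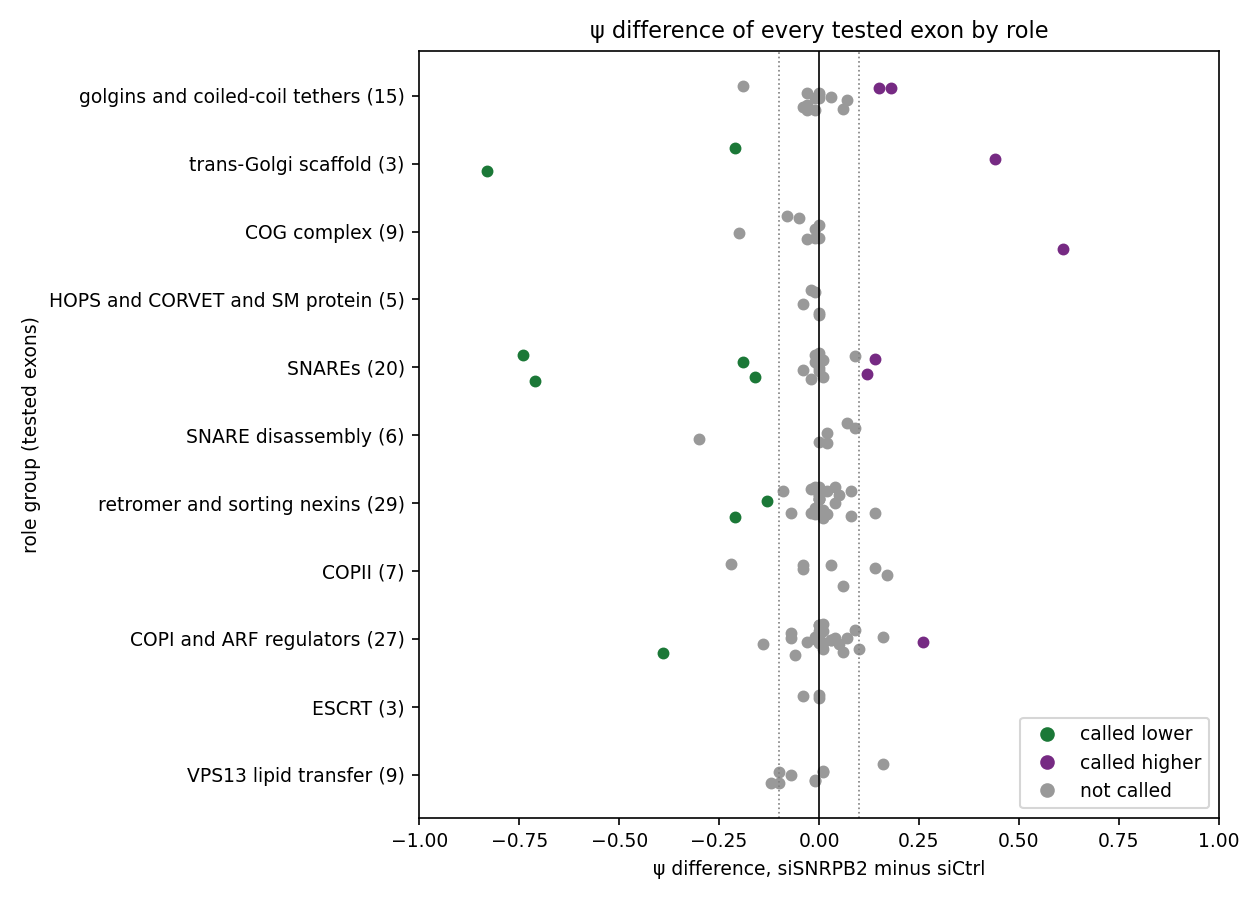
ψ difference (siSNRPB2 minus siCtrl) of each of the 133 tested exons, in rows by the role of the gene with the number of tested exons in brackets; green points were called lower, purple points higher and grey points were not called, and dotted lines stand at -0.1 and 0.1. The 3 points of the trans-Golgi scaffold MON2 are all coloured, and 5 rows hold grey points only.

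A further 12 exons (9.02%, against 4.65% of all tested exons) had a Bayes factor of at least 10 in the authors' deposited table with a ψ difference under 0.1, 6 lower and 6 higher. The 12 are not all separate, and such pairs were merged in neither share. The 79-nt and 83-nt exons of SNX5 overlap and have the same 10 skipping reads in siSNRPB2. The 80-nt and 117-nt exons of NAPA have the same 26 in siCtrl. Several of the 12 had reads of one class in 1 group only. The 110-nt exon of ARFGAP1 had 21 skipping reads and a ψ of 0.93 in siSNRPB2, against 0 reads and 1.00 in siCtrl. The 83-nt exon of SNX5 had 10 such reads and 0.91 in siSNRPB2, against 0 reads and 1.00 in siCtrl. NAPA, the main adaptor of SNARE disassembly, had the reverse on a 117-nt exon, with 0 skipping reads and a ψ of 0.99 in siSNRPB2, against 26 reads and 0.90 in siCtrl. Of exons annotated only for nonsense-mediated decay, those of COG4 (173 nt), VPS45 (231 nt) and VTI1B (162 nt) had fewer keeping reads in siSNRPB2, with 0, 0 and 7 against 25, 15 and 47 in siCtrl. The 134-nt exon of SNX6, a partner of SNX5, had more, with 28 in siSNRPB2 against 0 in siCtrl.

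Fisher's exact test, 2-sided and Benjamini-Hochberg adjusted over all 18682 exons, was run on the keeping and skipping reads of each exon. It compares the reads of these files, not the conditions. These reads also entered ψ, so a pass in this test is not separate from a call. With a difference of at least 0.1 in the share of keeping reads as well, this test called 10 member exons lower (7.52%), against 5.28% of all exons, and 8 higher (6.02%), against 5.27%. Adjusted p was under 0.05 for 12 of the 16 calls, in the direction of ψ. By this exact test it was 9.47e-17 for the 18-nt exon of MON2, 3.7e-16 for SNAP23, 1.97e-07 for VTI1A, 2.02e-07 for GOLGB1 and 0.000371 for USO1. For STX3 this exact test gave an adjusted p of 0.0113, with a difference in the share of keeping reads of -0.041, smaller than that of ψ (-0.19). GOLGB1 had the reverse, with a difference of 0.833 in the share of keeping reads and of 0.18 in ψ. The 4 exons of COPA, SNX5 and COG4 had no skipping read and an adjusted p of 1 in the same exact test, which cannot pass without one. When reads were divided by 9.94, 0 of the 16 and 4 of all 18682 exons passed. The 9.94 is the excess of between-file variation over counting error in 4582 exons kept in nearly all transcripts. It was taken from keeping reads against reads that both isoforms share, not against skipping reads. After this division exons with few reads could not pass, such as the 18-nt exon of MON2 (50 informative reads in siSNRPB2 and 47 in siCtrl). For such exons the result decides nothing.

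Since a call needs a difference of 0.1, an exon at or above 0.95 in both groups, or at or below 0.05 in both, cannot be called, and 64 member exons lay outside these ends. Of these 64, 25.0% were called, against 27.7% of the 9951 such exons in the whole table. Of the called member exons, 10 of 16 (62.5%) had a length divisible by 3. The share was 41.4% of the 133, 41.8% of all tested exons and 45.3% of all 2754 called exons. Exons of at most 30 nt, often called microexons, made up 3 of the 16 (18.8%) and 6.02% of the 133. They were 1.87% of all tested and 1.42% of all called exons. Of the 8 member microexons 3 were called (MON2, USO1 and SNX14), and of all 349 microexons 39 were (11.2%). Of longer exons 10.4% were called among members and 14.8% among all. No test was made on these counts. Median length was 104 nt in the called exons and 105 nt in the 133, and median GC content 47.2% and 45.7%. Of the called exons 62.5% were wholly coding, against 66.9% of the 133.

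The reads on a gene's deepest event that fitted either isoform, scaled to the total of the file, stand in for the level of its RNA. In bulk RNA, fewer cells and less RNA per cell cannot be told apart. Of 51 genes with at least 100 reads on average, 2 were lower in siSNRPB2 by 1.5-fold or more (3.92%, against 7.33% of 8331 genes in all) and 2 were higher (3.92%, against 7.17%). On the log2 scale the median ratio of siSNRPB2 over siCtrl was -0.09 with an SD of 0.39 across the 51 genes, and 0.00 with an SD of 0.44 across all. Of the 51, 22 stood above 0 and 29 below.

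The 2 higher genes were subunits of COG. COG7 had 400 reads in siSNRPB2 and 185 in siCtrl, a log2 ratio of 1.28, on its single event. That event is the one of its 273-nt exon, so this ratio and the lower ψ of that exon are not separate observations. Keeping reads there numbered 23 for each group, and only the reads that both isoforms share differed (siSNRPB2 377, siCtrl 162). COG2 had 292 reads in siSNRPB2 and 165 in siCtrl, a log2 ratio of 1.00. The event of its only tested exon, 233 nt, did not show such a rise. For siSNRPB2 it held 132 skipping and 31 shared reads, and for siCtrl 156 and 30. On the deepest event of COG2, reads that fitted neither isoform went the other way, with 175 in siSNRPB2 and 254 in siCtrl. The remaining COG genes were not higher by 1.5-fold: COG1 and COG5 had log2 ratios of 0.10 and 0.20, and COG4 and COG6 had -0.34 and -0.36. The 2 lower genes were SNX14 and ARFGAP2, which ends the ARF cycle on COPI vesicles. SNX14 had 273 reads in siSNRPB2 and 677 in siCtrl, a log2 ratio of -1.13. These are the reads of the event of its called 27-nt exon, so this ratio and that call are not separate observations. ARFGAP2 had 156 reads in siSNRPB2 and 274 in siCtrl, a log2 ratio of -0.63. Summed over all events of the gene, the log2 ratios were -0.56 for SNX14, -0.52 for ARFGAP2 and 0.56 for COG2, all inside the 1.5-fold bound, and 1.29 for COG7. VPS13C passed the bound only when summed, with 0.62 against 0.24 on its deepest event.

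The 3 genes with the most reads were all inside the 1.5-fold bound. SNX3 had 10992 reads in siSNRPB2 and 10223 in siCtrl, a log2 ratio of 0.28. VTI1B had 6932 reads in siSNRPB2 and 7794 in siCtrl, a log2 ratio of 0.01. COPG1 had 3374 reads in siSNRPB2 and 4629 in siCtrl, a log2 ratio of -0.28. Genes with called exons were within the bound except SNX14: log2 ratios were 0.42 for VTI1A, -0.12 for SNAP23, 0.07 for STX3, -0.04 for STX16, -0.31 for USO1, -0.25 for GOLGB1, -0.43 for COPA and -0.19 for SNX5.

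**Figure D4:**
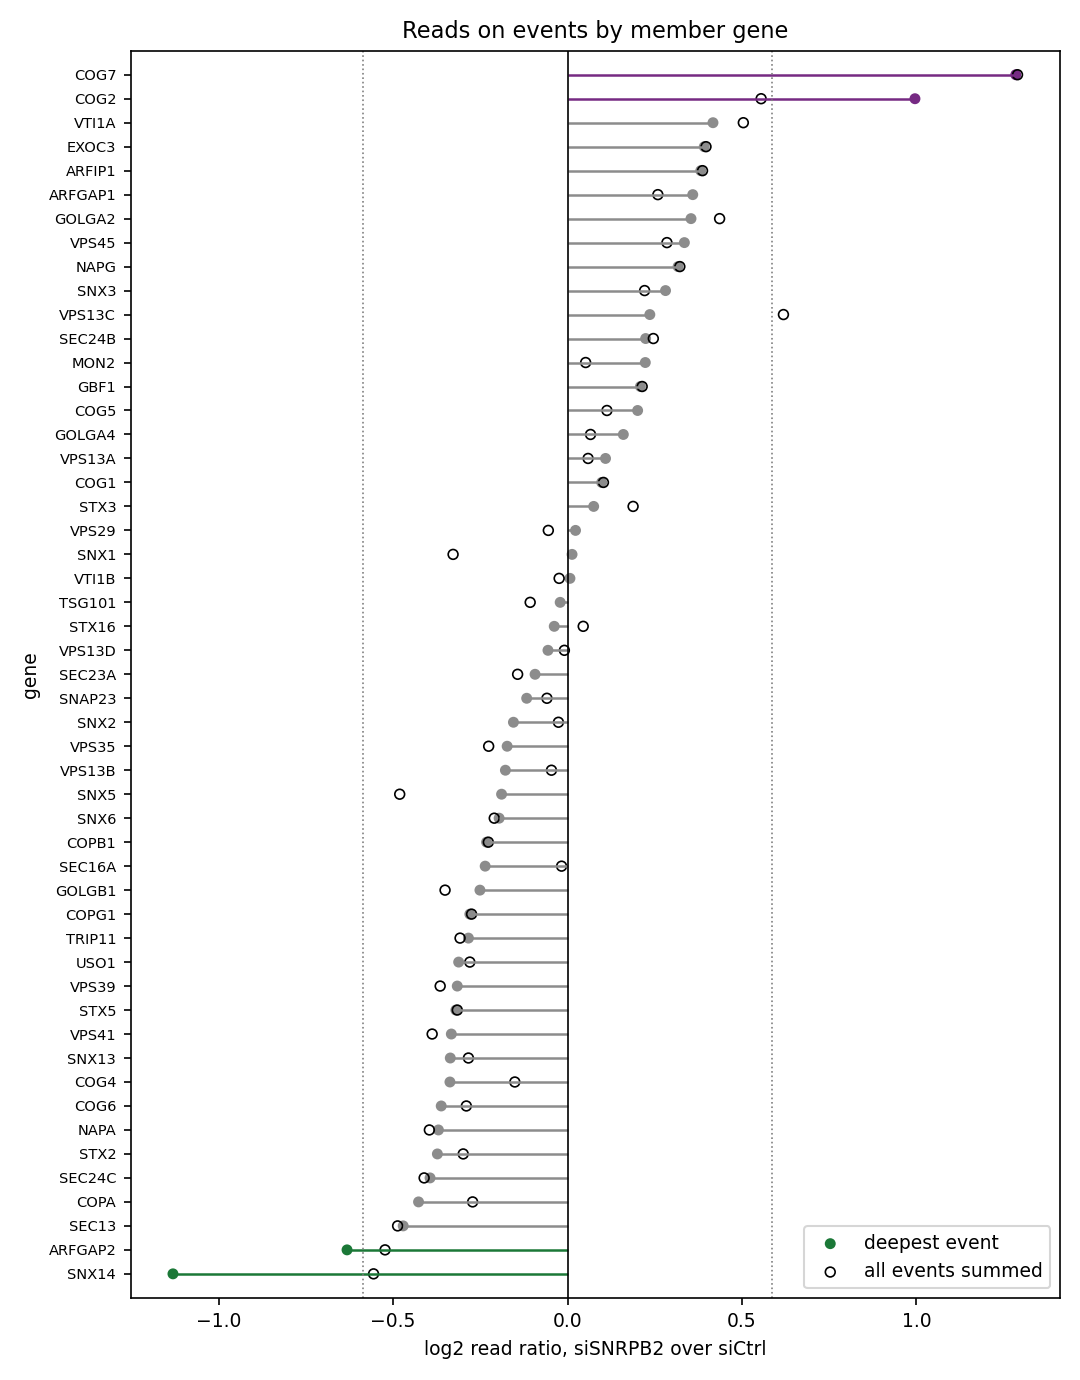
Log2 ratio of reads on events, siSNRPB2 over siCtrl, for the 51 genes with at least 100 reads on average, ordered by the ratio on the deepest event (filled points), with the ratio over all events of the gene as open circles; dotted lines mark 1.5-fold in each direction. COG7, for which both measures rest on the same single event, is outside the lines. The open circles of SNX14, ARFGAP2 and COG2 fall inside and that of VPS13C falls outside.

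A wider list of 146 further genes of the same complexes, from TRAPP and GARP to the other SNAREs and the ESCRT proteins, gave 262 tested exons in 91 genes. Of these 20 were called lower (7.63%) and 9 higher (3.44%), beside 7.61% and 7.13% of all tested exons. By reads, 7 of 96 of these genes were lower by 1.5-fold or more (7.29%) and 2 were higher (2.08%), with a median log2 ratio of -0.01.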

How the data were processed

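Total RNA of 4 libraries, 2 per group in the labels, was made into stranded total-RNA libraries. Per the submitters' processing notes, the aligner was STAR 2.7 and the build hg38. Per the file headers, the authors ran MISO on skipped exons and deposited, per group, a fraction (ψ) with its interval and read counts per class. The authors' deposited table of the comparison gives the ψ difference, a score without a fixed scale, and a Bayes factor, a ratio that reaches at most 1e+12. Not given in the sources used here are the MISO version, the event annotation, the interval level and any merging of libraries. No event was listed under 20 reads of any class.

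From these values the deepest event per exon was kept, where each file had 20 or more informative reads (medians of 131 in siSNRPB2 and 184 in siCtrl for the 133 exons). Genes were measured with at least 100 reads on average and a pseudocount of 1, as log2 ratios. Limits for a count of 0 are 3 counts of the total and cover counting error only. Fisher's exact test was checked on simulated reads. The alternatives tried were other thresholds for ψ, the Bayes factor and reads, other choices of event, exons with both boundaries annotated or in 1 gene only, and reads per gene counted or scaled otherwise. The text names every called exon, the 3 largest uncalled differences per direction, genes past 1.5-fold, the 3 genes with the most reads and, of the wider list, up to 1 called exon per role. Genes and lists were chosen with earlier results of these data known, and exons and events named beside these were chosen after their values were seen. Values were computed with Python 3.11.15, pandas 2.3.3, numpy 2.4.6 and scipy 1.17.1, and figures with matplotlib 3.10.9.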

Additional observations from a re-analysis of the deposited data

Results flagged for a closer look

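MISO also counts reads on an event that fit neither isoform, and except for COG2 these reads enter no comparison above. On the 216 events of the Golgi and endosome genes that both files list they made up 60.39% of reads in siSNRPB2 and 58.2% in siCtrl, which is flagged as a signal outside the main measurement that is above the control level. Over all 39919 such events the shares were 60.59% in siSNRPB2 and 58.45% in siCtrl. By gene, the log2 ratio of these reads over compatible reads, siSNRPB2 against siCtrl, had a median of 0.13 in 51 member genes (33 above 0) and 0.14 in 8313 genes. It was highest in USO1 (1.29) and COG4 (1.09) and lowest in COG2 (-1.36) and GBF1 (-0.75). What these reads hold was not analysed here.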

How the results depend on the processing

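The files hold 1 value per event and group, so the call rules, reads and assignments were varied instead. No paired analysis was possible because the deposited values carry no replicate numbers, and for the same reason neither a replicate block nor a library left out could be run. Of the alternatives, 26 group-level values kept within 1.5 times of the reported count or within its spread and 12 moved. Most are counts of calls, which cannot reverse a direction, and the median log2 read ratio of member genes stayed negative. Whether the share of members called stood below or above that of all exons depended on the rule. With a ψ difference of at least 0.2, 3 exons were called higher (2.26%, against 4.87% of all exons). With at least 50 informative reads, 5 of 100 member exons were called lower and 4 higher (5.0% and 4.0%), against 6.95% and 6.29% of all 14080. Fisher's exact test on undivided reads called 10 lower (7.52%, against 5.28% of all) and 8 higher (6.02%, against 5.27%). With reads divided by the between-file factor of 9.94 it called 0 lower and 0 higher, against 3 and 1 of all 18682. Thinly read exons could not pass after that division. The share of members called lower was also above that of all exons with at least 10 informative reads (8.67% and 7.72%), at a Bayes factor of 100 or more (6.02% and 5.85%) and among exons with a skipping read (9.72% and 9.52%). With reads summed over events 1 of 52 member genes was lower by 1.5-fold, against 687 of all 8974 genes. With at least 20 reads on average 4 of 53 were lower, against 1246 of 10738. With at least 1000 reads 0 of 18 were lower and 0 higher, against 50 and 63 of 3521. The median log2 read ratio was -0.057 summed over events, -0.117 with at least 20 reads and -0.164 with at least 1000. Counting exons that share a boundary once, chosen after seeing the data, gave 8 lower and 6 higher. Why these values moved was not tested. Depth limits the calls: 4 of the 9 exons called lower and 3 of the 7 called higher had under 50 informative reads in a file.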

Other observations

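In the wider list of 146 further genes of the same complexes, the called exons with the largest difference in each role were mostly lower in siSNRPB2. PREB, the exchange factor that starts COPII coats, had a 160-nt exon with a ψ of 0.31 (0.23 to 0.40) in siSNRPB2 and 0.78 (0.66 to 0.90) in siCtrl. SNAP47, a SNARE, had a 128-nt exon with 0.50 in siSNRPB2 and 0.98 in siCtrl. SCFD1, the regulator of STX5, had an 88-nt exon with 0.57 in siSNRPB2 and 0.91 in siCtrl, and ARFGAP3 a 132-nt exon with 0.54 in siSNRPB2 and 0.88 in siCtrl. Those of GOLIM4 (0.41 in siSNRPB2 and 0.66 in siCtrl), SNX19 (0.07 in siSNRPB2 and 0.33 in siCtrl) and CHMP7 (0.72 in siSNRPB2 and 0.97 in siCtrl) were lower as well. Higher were an 18-nt exon of TRAPPC13, a TRAPP tether subunit, with 0.67 (0.51 to 0.81) in siSNRPB2 and 0.20 (0.08 to 0.37) in siCtrl, and a 66-nt exon of the exocyst subunit EXOC7, with 0.91 in siSNRPB2 and 0.63 in siCtrl. The exons of PREB, SNAP47, ARFGAP3 and EXOC7 had no exclusion-only read in either group.

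By reads on the deepest event, GCC2, a trans-Golgi golgin, had 50 reads in siSNRPB2 and 160 in siCtrl, a log2 ratio of -1.48. USE1, a SNARE of the endoplasmic reticulum, had 285 reads in siSNRPB2 and 813 in siCtrl, a log2 ratio of -1.33. ARFRP1, VAMP1, TRAPPC13, VPS8 and VPS53 were lower by 1.5-fold or more too, and STAM2 (0.62) and BNIP1 (0.73) were higher.

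A 34-nt exon of BET1, an early Golgi SNARE, was listed in the siSNRPB2 file alone, with a ψ of 0.95, 25 inclusion-only and 0 exclusion-only reads, so it enters no comparison.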
